A study of Mus musculus with 44 samples.

Results

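The UDP-glucuronosyltransferases (UGT), cytosolic sulfotransferases (SULT) and glutathione S-transferases (GST) are the main conjugating enzymes of liver detoxification. They were followed here at the RNA level in liver nuclei of mice with diet-induced non-alcoholic steatohepatitis (NASH). The members were all rows of the deposited count table with a gene symbol in the Ugt1a, Ugt2, Ugt3, Sult1 to Sult5, Gsta, Gstk, Gstm, Gsto, Gstp, Gstt or Gstz families. The choice used gene names only. It gave 52 of the 20105 rows, of which 12 were UGT, 19 SULT and 21 GST genes. Of the 62 RefSeq genes with such a name, 10 had no row and are not analysed here. Averaged over all libraries, 36 members reached 1 CPM (counts in a library scaled to 1000000 counts) and 16 lay below it.

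The study isolated RNA from nuclei of male HEP-INTACT mice, a line whose hepatocyte nuclei carry a tag so that they can be pulled out of a liver homogenate (INTACT names the method). From each of 22 mice, hepatocyte nuclei and whole liver nuclei were sequenced as separate libraries. In the CDAHFD experiment (a choline-deficient high-fat diet with defined amino acids, for 7 weeks), 3 mice had advanced NASH, 4 had mild NASH and 4 were controls on a low-fat diet for the same time. In the FPC experiment (the FPC diet, a name the labels do not expand, for 20 weeks), 3 mice likewise had advanced NASH, 4 mild NASH and 4 were low-fat controls. All groups, controls included, carried the tag. Mild and advanced mice had eaten the same diet and were divided by liver histology, with significant fibrosis reported for advanced mice only, so these groups were not randomised. The labels give no age or strain, nor the promoter that drives the tag.

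Conjugation attaches a polar group to a drug, hormone, bile acid or reactive intermediate, which makes the product easier to excrete. UGT enzymes of the endoplasmic reticulum transfer glucuronic acid from UDP-glucuronic acid, SULT enzymes of the cytosol transfer sulfate from PAPS, and most GST enzymes add glutathione to electrophiles, including products of lipid peroxidation. Hepatocytes hold most of these enzymes in the liver. The UGT and SULT genes are classically driven by hepatocyte factors such as HNF4A and by the nuclear receptors CAR and PXR, and many GST genes by the oxidative stress factor NRF2.

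The 44 libraries held 12135408 to 33063251 counts each, with a median of 22798944, of which the members took 0.149% to 0.974%. Values below are CPM after TMM scaling (trimmed mean of M-values, edgeR), and a gene was called when its Benjamini-Hochberg adjusted p over all genes was under 0.05 in edgeR's quasi-likelihood test. The hepatocyte nuclei carried the hepatocyte markers in every group, with summed levels of 5334 to 7593 CPM in advanced CDAHFD mice against 11195 to 25440.0 CPM in their controls, and 4783 to 8839.8 CPM in advanced FPC mice against 12141 to 24859 CPM in their controls. Of the 10 hepatocyte markers, 6 and 8 were called lower in advanced CDAHFD and FPC hepatocyte nuclei and 0 higher. Over all tested genes, 59.5% were called on CDAHFD (30.3% higher, 29.2% lower) and 46.9% on FPC (26.5% higher, 20.4% lower). The sums of the cholangiocyte, recruited macrophage, Kupffer cell, lymphocyte and neutrophil markers were higher in advanced mice under both diets, without overlap. Those of the stellate cell and endothelial markers overlapped with controls. The 6 lymphocyte markers summed to 13.8 to 20.9 CPM against 3.32 to 6.76 CPM in controls on CDAHFD. On FPC the lymphocyte sums were 18.7 to 35.6 CPM against 5.81 to 7.85 CPM. The 8 cholangiocyte markers summed to 319 to 499 CPM against 113 to 177 CPM (CDAHFD, 7 called higher) and to 970.0 to 1460.1 CPM against 136 to 165 CPM (FPC, 8 called higher). The 6 markers of recruited macrophages, all called higher under both diets, summed to 62.3 to 66.5 CPM against 4.85 to 9.04 CPM and to 40.4 to 54.9 CPM against 3.54 to 5.45 CPM. Of the 8 stellate cell markers, 4 were called higher and 1 lower on CDAHFD, and 5 and 0 on FPC. Of the 7 Kupffer cell markers, 5 were called higher and 1 lower on CDAHFD, and 2 and 1 on FPC. Their sums were 47.5 to 60.2 CPM against 8.34 to 19.7 CPM on CDAHFD. On FPC these sums were 36.2 to 45.7 CPM against 14.8 to 21.8 CPM. The stellate cell count on CDAHFD and the Kupffer cell count on FPC lay near the share over all genes. The 10 endothelial markers summed to 79.3 to 96.4 CPM against 81.4 to 128 CPM on CDAHFD (1 called higher and 1 lower) and to 82.8 to 120.1 CPM against 85.8 to 131 CPM on FPC (2 higher and 1 lower). Markers at 0 counts in all libraries of an advanced hepatocyte group were limited to Ly6g of the neutrophil list. The part of these cells in the changes below was not tested, and in such bulk libraries fewer cells of a type cannot be told apart from less RNA per cell. Mice are named by stage and number as in the labels, and the numbers paired the fractions for 20 of 22 mice. The libraries labelled with the CDAHFD mice Control_9862 and Control_9867 went against their numbers: Ugt2a3 stood at 179 CPM in the hepatocyte library labelled Control_9862 and at 149 CPM in the whole liver library labelled Control_9867.

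In advanced NASH the 3 superfamilies together took a smaller share of the counts of hepatocyte nuclei, and Sult2a8, a bile acid sulfotransferase gene, made up 78.5% (CDAHFD) and 57.1% (FPC) of the difference between the mean sums. The members summed to 2155 ± 76.6 CPM in advanced CDAHFD mice (SD, n = 3) against 7934 ± 635 CPM in controls (SD, n = 4), and to 2164 ± 124 CPM in advanced FPC mice (n = 3) against 11580.0 ± 1254 CPM in controls (n = 4). The sums are given as a description, with no test, and the SULT sum differed most. In control, mild and advanced mice it was 4921 ± 974, 1926 ± 376 and 299.9 ± 78.0 CPM on CDAHFD and 5697 ± 1166, 1945 ± 142 and 130.1 ± 36.2 CPM on FPC. The UGT sum was 1478 ± 188, 690.1 ± 96.3 and 562 ± 137 CPM on CDAHFD and 2536 ± 367, 1159.5 ± 153 and 752 ± 120.4 CPM on FPC. The GST sum kept no common course: it was 1535 ± 434, 1962 ± 556 and 1294 ± 255 CPM on CDAHFD, where the stages overlapped, and 3346 ± 441, 1844 ± 202 and 1282 ± 26.9 CPM on FPC, where it was lower in advanced than in control mice.

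**Figure D1:**
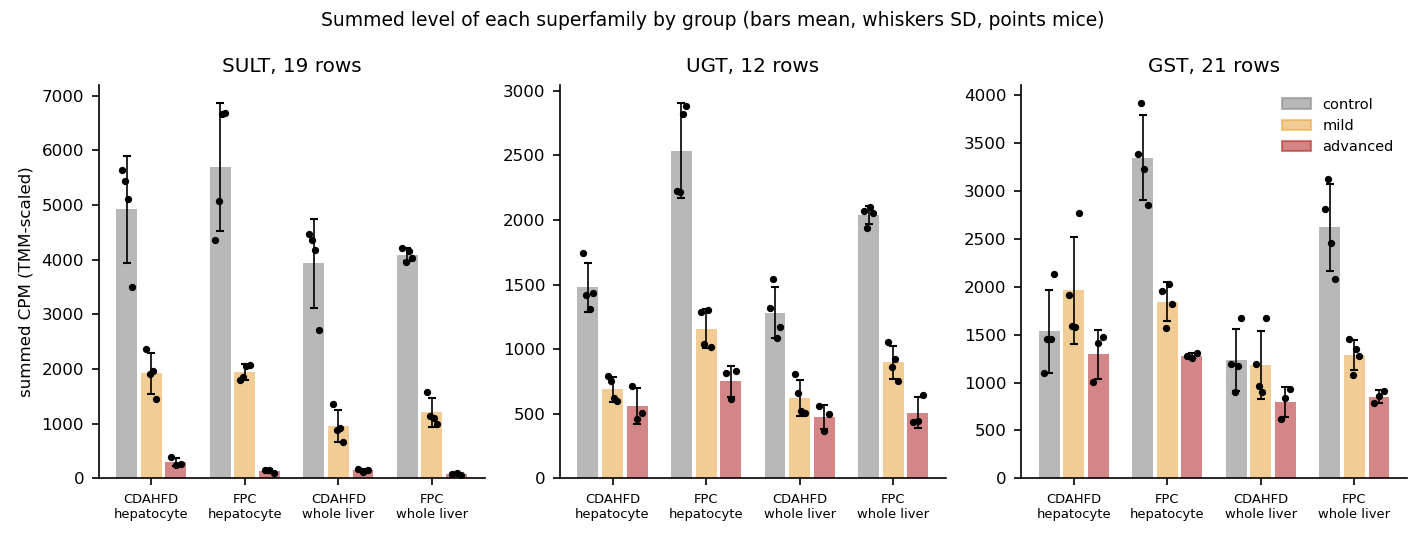
Summed CPM of the SULT, UGT and GST members by stage (control, mild, advanced) in hepatocyte and whole liver nuclei of both diets; bars are means, error bars SD and points single mice (n = 4, 4 and 3). The SULT bars of hepatocyte nuclei end at 299.9 (CDAHFD) and 130.1 CPM (FPC) in advanced mice, against 4921 and 5697 CPM in controls.

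Gene by gene, the called UGT genes, all of the Ugt2 and Ugt3 families, moved in 1 direction and the called GST genes in both. In advanced CDAHFD hepatocyte nuclei, 11 of 40 tested members were called higher and 19 lower than in controls, where 59.5% of all tested genes were called (30.3% higher, 29.2% lower). In advanced FPC hepatocyte nuclei 6 of 41 were higher and 23 lower, against a background of 46.9% called (26.5% higher, 20.4% lower). The median log2 fold change was -0.66 over the members and 0.00 over all genes on CDAHFD, and -1.07 and 0.00 on FPC. Of 11 tested UGT genes 9 were called lower and 0 higher under each diet. Of 10 tested SULT genes, 3 were higher and 6 lower on CDAHFD, and 3 higher and 5 lower on FPC. The GST genes split, with 8 higher and 4 lower of 19 on CDAHFD and 3 higher and 9 lower of 20 on FPC. On CDAHFD the GST calls of both directions together and the members called higher lay near the share over all genes. So did the SULT genes called higher under both diets. Without scaling between libraries, which moves the median of all genes to 0.49 (CDAHFD) and 0.41 (FPC), the CDAHFD split over all members became 14 higher and 13 lower.

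Of 39 members tested under both diets, 17 were called lower under both and 5 higher under both, where 15.4% of all genes tested under both were called lower under both and 19.8% higher. The 5 were Gsta1, Gstm1, Gstm3, Sult2a2 and Sult2b1. Gsta4 and Gstt2 were called higher in advanced CDAHFD mice and lower in advanced FPC mice, each relative to its own controls. All 40 CDAHFD and 41 FPC members that could be set beside the authors' deposited table of log2 fold changes had the same sign there, with a median absolute difference of 0.0419 and 0.0154 log2 units. Of these, 31 (CDAHFD) and 30 (FPC) had an adjusted p under 0.05 in that table, and 30 and 29 of them were also called here.

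Sult2a8 encodes a sulfotransferase of the Sult2a cluster that adds sulfate to bile acids in mouse liver. Its gene (NM_175250, chromosome 7, 14410686 to 14446587 on mm10, minus strand) is counted over exons and introns, as are 47 of the 48 members in the authors' table. In hepatocyte nuclei it stood at 234, 141 and 99.2 CPM in the advanced CDAHFD mice against 5424, 5191, 4888 and 3281 CPM in controls. The advanced FPC mice had 81.3, 60.7 and 29.6 CPM against 4163, 4788, 6423 and 6346 CPM in controls. No advanced mouse came near the lowest control under either diet. The log2 fold changes were -4.87 ± 0.36 SE, adjusted p = 8.5e-07 on CDAHFD and -6.45 ± 0.36 SE, adjusted p = 2.7e-08 on FPC. Per kilobase of gene, Sult2a8 was the highest member in both control groups, at 130.8 and 151.2 CPM per kb, or 84.8% and 85.0% of the SULT signal of CDAHFD and FPC controls. In advanced mice Sult1a1 led the SULT genes instead, with 70.4% (CDAHFD) and 75.0% (FPC) of their signal per kb, and the highest member of all was Gstp1 on CDAHFD (39.1 CPM per kb) and Gsta3 on FPC (30.0 CPM per kb). 

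Sult2a8 was also lower in mild mice than in controls under both diets. Mild CDAHFD mice had 2129, 1698, 1709 and 1154 CPM (-1.48 ± 0.27 SE, adjusted p = 0.00071 against control on the log2 scale) and mild FPC mice 1696, 1761, 1960.1 and 1987 CPM (-1.47 ± 0.25 SE, adjusted p = 0.00074). Advanced mice lay below mild mice under each diet, by -3.40 ± 0.33 SE, adjusted p = 0.00057 on CDAHFD and -4.99 ± 0.34 SE, adjusted p = 3.9e-06 on FPC. The fold change of advanced disease was smaller in size on CDAHFD than on FPC, with a difference of 1.64 ± 0.42 SE, adjusted p = 0.017 that was not called without the CDAHFD library Advanced_9845 (adjusted p = 0.060). RefSeq gives this gene 2 starts. The 300 bases around the start that matches the gene's position in the authors' table, 250 before and 50 after it, are printed because this gene carries most of the change in the SULT sum (GRCm38.p6, the same assembly as mm10, chr7:14446538-14446837, minus strand). The capitals mark the TATA box letters TATAAA, which lie here on the opposite strand, 223 bases before the start. The window of the other start (chr7:14438502-14438801, minus strand, not printed) holds these letters on the gene's strand, 29 bases before that start.
Sult2a8: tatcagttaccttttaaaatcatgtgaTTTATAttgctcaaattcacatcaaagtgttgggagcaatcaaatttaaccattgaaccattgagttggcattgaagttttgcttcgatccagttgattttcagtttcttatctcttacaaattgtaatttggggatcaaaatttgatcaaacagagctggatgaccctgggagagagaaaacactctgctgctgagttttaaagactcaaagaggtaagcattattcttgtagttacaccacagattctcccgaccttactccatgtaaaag

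The neighbouring genes of the Sult2a cluster did not share 1 direction. Sult2a7 was called lower (-4.76 ± 0.78 SE, adjusted p = 0.00027 on CDAHFD, -5.23 ± 0.53 SE, adjusted p = 4.2e-06 on FPC). On CDAHFD this rests on 6 counts in 3 advanced libraries against 269 in 4 controls, a ratio of 0.0325 with a counting interval of 0.0118 to 0.0717 (95%, counting error only). Sult2a2 was called higher, at 5.55, 2.73 and 1.96 CPM in advanced CDAHFD mice against 0.301, 0.172, 0 and 0.244 CPM in controls (4.14 ± 0.63 SE, adjusted p = 0.00015) and 0.286, 2.14 and 1.69 CPM in advanced FPC mice against 0.582, 0.244, 0.258 and 0.120 CPM in controls (2.23 ± 0.64 SE, adjusted p = 0.012), where the ranges overlapped and the call was lost without the library Advanced_6880 (adjusted p = 0.064). Sult2a5 had 59 counts in the advanced CDAHFD libraries and 0 in the controls, at least 28.7-fold higher against a floor of 3 counts over the group (adjusted p = 0.00044). On FPC it had too few counts to be tested, at 0.0955 to 0.319 CPM in advanced mice against 0 to 0.0515 CPM in controls. Coding sequences of Sult2a1 to Sult2a6 are 89.7% to 98.3% identical to their closest copy, so reads of these genes are uncertain between copies.

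Sult2b1, a cholesterol sulfotransferase known from skin and other epithelia, was near 0 in controls and present in advanced disease. It had 0.411, 1.96 and 2.28 CPM in advanced CDAHFD mice against 0, 0.0859, 0.0676 and 0 CPM in controls, that is 91 counts against 3, a ratio of 44.2 (interval 14.7 to 218.2). Advanced FPC mice had 2.01, 5.60 and 2.58 CPM, against 0.145, 0.0611, 0 and 0.120 CPM in controls, 247 counts against 6 and a ratio of 39.1 (17.7 to 107.5). All advanced mice exceeded all controls, and the adjusted p was 0.00026 on CDAHFD and 6.5e-06 on FPC. The cholangiocyte and macrophage markers rose in the same libraries, and their part in this increase was not tested. Sult4a1, a sulfotransferase mainly known from brain, had 107 counts in advanced FPC hepatocyte nuclei against 1 in controls, a ratio of 101.5 (17.8 to 4046, 6.3 ± 0.69 SE, adjusted p = 8.8e-06 on the log2 scale). On CDAHFD it had too few counts to be tested, at 0.140 to 0.761 CPM in advanced mice against 0 to 0.129 CPM in controls.

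The 6 Sult1 genes act on phenols, catecholamines and thyroid hormone, and 4 of them had enough counts to be tested. In advanced disease 3 were called lower on CDAHFD and 2 on FPC. Sult1b1, a thyroid hormone sulfotransferase, had 7.54, 3.35 and 5.25 CPM in advanced CDAHFD mice against 18.4, 19.2, 17 and 7.13 CPM in controls, where the ranges overlapped (-1.50 ± 0.34 SE, adjusted p = 0.0026). The FPC values were 5.73, 6.01 and 4.39 CPM in advanced mice against 28.7, 22.2, 32.7 and 21.9 CPM in controls, with no overlap (-2.17 ± 0.22 SE, adjusted p = 4.2e-06). Sult1d1, which sulfates catecholamines in mice, was lower under both diets. It had 11.2, 6.22 and 15.5 CPM in advanced CDAHFD mice against 29.9, 31.9, 26.1 and 74.8 CPM in controls (-1.87 ± 0.42 SE, adjusted p = 0.0028). On FPC the values were 20.8, 9.52 and 12.9 CPM in advanced mice against 31.0, 31.9, 40.1 and 41.8 CPM in controls (-1.20 ± 0.25 SE, adjusted p = 0.0014). Sult1c2 was called lower on CDAHFD (-1.89 ± 0.28 SE, adjusted p = 0.00011), while on FPC its change of -0.87 ± 0.36 SE, adjusted p = 0.063 did not pass. Its FPC ranges did not overlap (3.34 to 4.37 CPM in advanced mice against 4.61 to 9.74 CPM in controls). It was called lower in advanced FPC whole liver, and the authors' DESeq2 table gives an adjusted p of 0.021 for hepatocyte nuclei. Sult1a1, the general phenol sulfotransferase, was not called in advanced hepatocyte nuclei (0.80 ± 0.36 SE, adjusted p = 0.073 on CDAHFD, -0.17 ± 0.26 SE, adjusted p = 0.64 on FPC). For advanced CDAHFD the authors' DESeq2 table gives it an adjusted p of 0.029. It was called higher in mild CDAHFD hepatocyte nuclei and lower in advanced FPC whole liver. Its level was 71.2 ± 25.3 CPM in advanced and 41.3 ± 15.4 CPM in control CDAHFD mice (SD, n = 3 and 4), and its gene overlaps Slx1b.

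Sult5a1 fell under both diets, and by more on FPC. On CDAHFD it had 57.4, 36.6 and 35.2 CPM in advanced mice against 124, 145, 118 and 57.5 CPM in controls (-1.35 ± 0.30 SE, adjusted p = 0.0023), the highest advanced mouse lying just below the lowest control, and mild mice, at 124, 111, 172 and 112 CPM, were not called against controls (0.23 ± 0.26 SE, adjusted p = 0.47). On FPC it had 4.46, 5.78 and 3.71 CPM in advanced mice against 71.4, 156, 119.7 and 229 CPM in controls (-4.83 ± 0.44 SE, adjusted p = 2.6e-06), and 39.0, 26.1, 19 and 17.9 CPM in mild mice (-2.41 ± 0.34 SE, adjusted p = 0.00023 against control). The difference between the advanced fold changes was 3.54 ± 0.52 SE, adjusted p = 0.00055. The remaining SULT members, Sult1c1, Sult1e1, Sult2a1, Sult2a3, Sult2a4, Sult2a6, Sult3a1 and Sult3a2, had too few counts to be tested in advanced against control hepatocyte nuclei of either diet.

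**Figure D2:**
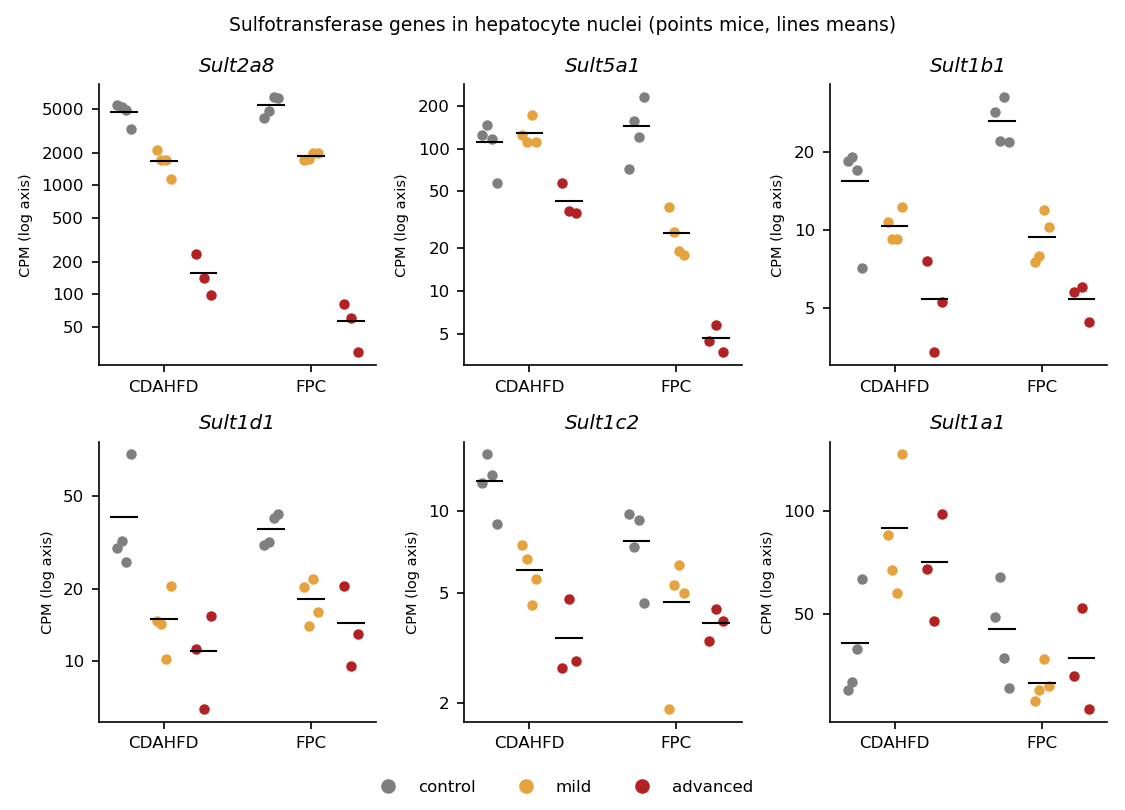
CPM of 6 SULT genes in hepatocyte nuclei of single mice (points, log axis) with group means (lines), by diet and stage. Sult2a8 lies at 29.6 to 81.3 CPM in advanced FPC mice and at 4163 to 6423 CPM in FPC controls, whereas Sult1a1 overlaps between advanced and control mice.

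The UGT genes of the Ugt2 and Ugt3 families were lower in advanced disease almost throughout. The 9 called were the same under both diets: Ugt2a3, Ugt2b1, Ugt2b5, Ugt2b34, Ugt2b35, Ugt2b36, Ugt2b38, Ugt3a1 and Ugt3a2. The tested members without a call were Ugt1a10 and Ugt2b37, and Ugt2a1 had too few counts to be tested. The Ugt2b enzymes conjugate steroids, bile acids and many drugs, and their genes lie in a cluster on chromosome 5. The row named Ugt1a10 spans the Ugt1a locus, overlaps 15 other genes and was counted over 15368 of 164592 bases, so it does not stand for a single Ugt1a enzyme. It was the only Ugt1a row. Ugt1a1, Ugt1a2, Ugt1a5, Ugt1a6a, Ugt1a6b, Ugt1a7c, Ugt1a8 and Ugt1a9 had no row, so the Ugt1a family is largely not covered here. The log2 difference of the Ugt1a10 row was -0.67 ± 0.62 SE, adjusted p = 0.37 on CDAHFD and -0.06 ± 0.62 SE, adjusted p = 0.95 on FPC.

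Ugt2b5 (NM_009467, chromosome 5, 87124947 to 87140340 on mm10, minus strand) was the highest UGT member per kilobase in every hepatocyte group. It had 171, 116 and 116 CPM in advanced CDAHFD mice against 426, 372, 301 and 381 CPM in controls (-1.44 ± 0.20 SE, adjusted p = 8.2e-05). Advanced FPC mice had 201, 179 and 254 CPM, against 653, 688, 857 and 839 CPM in controls (-1.72 ± 0.18 SE, adjusted p = 5.7e-06). The groups were apart under both diets. Ugt2b36 had 171, 122 and 139.9 CPM in advanced CDAHFD mice against 374, 390.1, 363 and 424 CPM in controls, and 229, 147 and 200.5 CPM in advanced FPC mice against 528, 609, 709 and 828 CPM in controls (log2 fold changes -1.41 ± 0.15 and -1.67 ± 0.19, SE). Ugt2b1 fell more, to 24.7, 11.4 and 17.3 CPM in advanced CDAHFD mice, against 152, 92.5, 71.1 and 113 CPM in controls (-2.57 ± 0.31 SE, adjusted p = 3.2e-05), and to 30.6, 9.75 and 17.9 CPM in advanced FPC mice, against 115, 117, 149 and 176 CPM in controls (-2.72 ± 0.44 SE, adjusted p = 0.00029). Neither of these genes overlapped between advanced and control mice. Ugt2a3 had 52.0, 25.6 and 41.1 CPM in advanced CDAHFD mice against 179, 56.9, 66.3 and 51.2 CPM in controls, the high control being the library labelled Control_9862 (-1.14 ± 0.41 SE, adjusted p = 0.034). The FPC values were 24.1, 39.7 and 20.3 CPM in advanced mice against 238, 135, 192 and 137 CPM in controls (-2.53 ± 0.58 SE, adjusted p = 0.0044). Ugt2b34, Ugt2b35 and Ugt2b38 changed less, by -0.76 ± 0.19, -0.70 ± 0.22 and -0.88 ± 0.35 on CDAHFD and by -0.94 ± 0.20, -1.0 ± 0.24 and -1.77 ± 0.28 on FPC (log2, SE). On CDAHFD the calls of Ugt2a3, Ugt2b34, Ugt2b35 and Ugt2b38 were lost without scaling between libraries (adjusted p = 0.17, 0.24, 0.41 and 0.34). Those of Ugt2a3, Ugt2b35 and Ugt2b38 were also lost without the library Advanced_9896 (0.12, 0.073 and 0.14) or Advanced_10104 (0.074, 0.064 and 0.15), and those of Ugt2a3 and Ugt2b38 without the library Control_9862 (0.053 and 0.14) and in the fit of the advanced and control libraries alone (0.080 and 0.076).

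The Ugt2b5, Ugt2b36, Ugt2b37 and Ugt2b38 windows are printed because these neighbours share an unbroken run of 22 bases just before the start, and 3 of them were called lower together while Ugt2b37 was not (-0.66 ± 0.97 SE, adjusted p = 0.58 on CDAHFD, 0.31 ± 0.79 SE, adjusted p = 0.78 on FPC). The run, in capitals, was taken as the longest stretch common to these 4 windows, so its presence in them was fixed by that search. Of 32851 RefSeq windows, only these 4 hold it (0.0122%). All are on the minus strand of chromosome 5 in GRCm38.p6, at chr5:87140291-87140590, chr5:87092506-87092805, chr5:87254739-87255038 and chr5:87424154-87424453 in the order shown. The genes are copies of each other: the coding sequence of Ugt2b5 is 97.1% identical to that of Ugt2b38, and that of Ugt2b37 94.7% identical to that of Ugt2b5, so reads may be divided uncertainly between them.
Ugt2b5: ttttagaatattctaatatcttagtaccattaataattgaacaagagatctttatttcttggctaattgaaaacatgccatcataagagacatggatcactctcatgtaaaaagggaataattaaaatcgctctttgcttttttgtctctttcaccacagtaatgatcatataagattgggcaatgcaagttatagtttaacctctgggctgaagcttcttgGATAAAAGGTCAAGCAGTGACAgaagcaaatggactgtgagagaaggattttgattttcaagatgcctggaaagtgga
Ugt2b36: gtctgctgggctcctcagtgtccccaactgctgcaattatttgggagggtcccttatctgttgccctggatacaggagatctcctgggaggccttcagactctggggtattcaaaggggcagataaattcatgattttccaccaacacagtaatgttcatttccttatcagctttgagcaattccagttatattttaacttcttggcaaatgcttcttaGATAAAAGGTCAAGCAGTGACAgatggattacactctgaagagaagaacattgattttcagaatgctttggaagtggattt
Ugt2b37: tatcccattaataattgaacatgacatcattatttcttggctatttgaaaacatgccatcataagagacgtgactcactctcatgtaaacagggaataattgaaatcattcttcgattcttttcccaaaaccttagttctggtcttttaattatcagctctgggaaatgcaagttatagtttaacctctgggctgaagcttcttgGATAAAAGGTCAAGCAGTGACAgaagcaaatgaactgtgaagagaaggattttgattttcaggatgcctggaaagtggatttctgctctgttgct
Ugt2b38: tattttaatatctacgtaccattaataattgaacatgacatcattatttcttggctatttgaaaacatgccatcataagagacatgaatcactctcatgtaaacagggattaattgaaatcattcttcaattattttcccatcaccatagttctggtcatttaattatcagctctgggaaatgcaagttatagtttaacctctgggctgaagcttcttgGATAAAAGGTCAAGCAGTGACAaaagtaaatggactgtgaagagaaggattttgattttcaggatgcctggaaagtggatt

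The genes of the Ugt3a enzymes, which in humans use UDP-sugars other than glucuronic acid, fell as well. Ugt3a1 had 14.9, 4.40 and 8.25 CPM in advanced CDAHFD mice against 60.8, 51.0, 76.4 and 34.6 CPM in controls (-2.58 ± 0.41 SE, adjusted p = 0.00026). On FPC it had 27.4, 13.1 and 33.7 CPM in advanced mice against 84.3, 105, 86.2 and 138 CPM in controls (-1.93 ± 0.34 SE, adjusted p = 0.00053). Its near copy Ugt3a2 (93.3% identical in coding sequence) changed by -1.54 ± 0.26 on CDAHFD and -1.55 ± 0.19 on FPC, with no overlap between advanced and control mice for either gene.

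**Figure D3:**
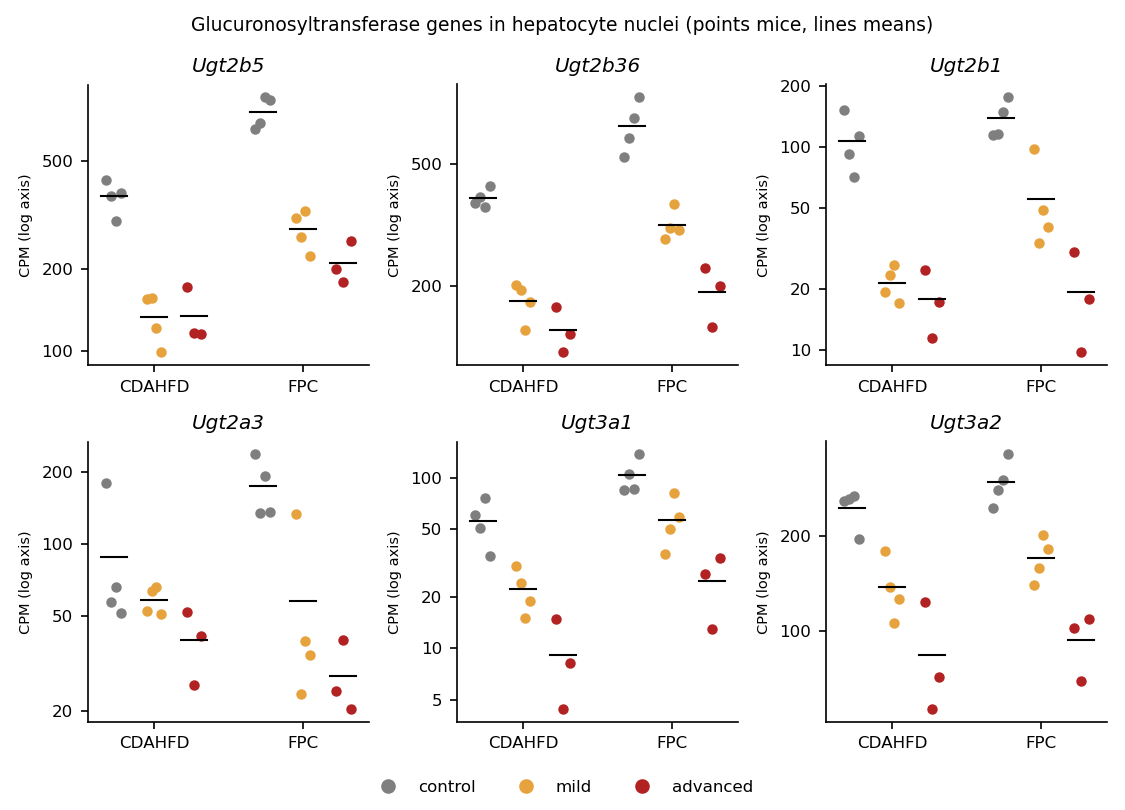
CPM of 6 UGT genes in hepatocyte nuclei of single mice (points, log axis) with group means (lines), by diet and stage. Ugt2b5 lies at 116 to 171 CPM in advanced CDAHFD mice and at 301 to 426 CPM in their controls, and Ugt2a3 has a single high CDAHFD control.

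The alpha class of GST handles lipid peroxides and reactive epoxides. It held the 2 largest differences between the diets in the fold change over each diet's own controls, for Gsta1 and Gsta2. The controls of the 2 experiments also differed for these genes, as given below. Gsta1 (NM_008181, chromosome 9, 78230669 to 78242683 on mm10, plus strand) was the member with the largest rise on CDAHFD, with 19, 63.3 and 25.3 CPM in advanced mice against 0.10, 0, 0.270 and 0.342 CPM in controls (7.70 ± 0.60 SE, adjusted p = 1.8e-06). Advanced FPC mice had 9.10, 27.1 and 23.6 CPM, against 5.82, 2.08, 3.50 and 2.81 CPM in controls (2.59 ± 0.39 SE, adjusted p = 0.00014). It rose under both diets, without overlap. Gsta2 had 10.2, 24.3 and 20.7 CPM in advanced CDAHFD mice against 1.66, 1.29, 5.0 and 0.830 CPM in controls (3.14 ± 0.51 SE, adjusted p = 0.00028), again apart. On FPC, 5.16, 22.3 and 21.6 CPM in advanced mice against 52.7, 32.2, 40.7 and 26.1 CPM in controls was not called (-1.10 ± 0.52 SE, adjusted p = 0.11). Gsta4, which clears the lipid peroxidation product 4-hydroxynonenal, had 4.94, 12.5 and 8.21 CPM in advanced CDAHFD mice against 1.21, 2.06, 3.25 and 2.78 CPM in controls (1.90 ± 0.34 SE, adjusted p = 0.00049). Its FPC values were 5.70, 8.20 and 8.82 CPM in advanced mice against 16.3, 15.2, 15.3 and 13.7 CPM in controls, a fall (-0.88 ± 0.18 SE, adjusted p = 0.0017) whose call was lost without scaling between libraries (adjusted p = 0.080). Gsta3, the enzyme that protects mice from aflatoxin epoxide, was not called on CDAHFD (-0.32 ± 0.39 SE, adjusted p = 0.5) and fell on FPC, to 865, 661 and 725 CPM in advanced mice, against 2430.3, 2998, 2143 and 1977 CPM in controls (-1.55 ± 0.22 SE, adjusted p = 8.9e-05).

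The start windows of Gsta1 and Gsta2 are shown because these genes are near copies (97.9% identical in coding sequence) of which Gsta1 was called higher and Gsta2 was not called on FPC. They lie on chromosome 9 in opposite orientation in GRCm38.p6, Gsta1 at chr9:78230419-78230718 on the plus strand and Gsta2 at chr9:78347096-78347395 on the minus strand. Aligned end to end, 232 of 300 bases are identical (77.3%), and the capitals mark the 68 bases of each that differ or have no partner. The Gsta3 window (chr1:21240335-21240634, plus strand) is added because it is 1 of 3 member windows of 56 (5.36%) that hold the antioxidant response element core TGACNNNGC on either strand, in capitals, 121 bases before the start. Of all windows, 12.4% hold it.
Gsta1: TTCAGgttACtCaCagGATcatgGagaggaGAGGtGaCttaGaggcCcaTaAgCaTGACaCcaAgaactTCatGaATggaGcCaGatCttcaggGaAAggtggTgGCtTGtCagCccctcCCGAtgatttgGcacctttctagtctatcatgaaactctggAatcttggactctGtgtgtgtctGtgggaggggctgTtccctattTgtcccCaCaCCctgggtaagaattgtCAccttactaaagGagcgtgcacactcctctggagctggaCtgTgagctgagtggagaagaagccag
Gsta2: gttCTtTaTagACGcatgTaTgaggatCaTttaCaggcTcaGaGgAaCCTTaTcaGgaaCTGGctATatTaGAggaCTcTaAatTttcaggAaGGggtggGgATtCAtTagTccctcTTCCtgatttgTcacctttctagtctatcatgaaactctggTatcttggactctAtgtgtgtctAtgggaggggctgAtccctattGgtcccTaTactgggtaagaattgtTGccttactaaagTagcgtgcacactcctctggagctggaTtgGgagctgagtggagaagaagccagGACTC
Gsta3: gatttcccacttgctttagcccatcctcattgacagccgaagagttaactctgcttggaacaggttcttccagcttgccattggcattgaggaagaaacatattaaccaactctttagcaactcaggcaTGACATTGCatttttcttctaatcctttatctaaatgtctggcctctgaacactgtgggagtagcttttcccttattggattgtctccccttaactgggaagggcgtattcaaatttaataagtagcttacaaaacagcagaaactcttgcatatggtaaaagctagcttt

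In the mu class, a cluster of genes on chromosome 3, Gstm3 (NM_010359, chromosome 3, 107963696 to 107969174 on mm10) rose most. It had 12.8, 5.45 and 3.52 CPM in advanced CDAHFD mice against 0.804, 0.258, 0.676 and 0.684 CPM in controls (3.6 ± 0.48 SE, adjusted p = 6.2e-05). The FPC values were 25.5, 24.9 and 58.0 CPM in advanced mice against 1.41, 0.794, 2.37 and 5.45 CPM in controls (3.99 ± 0.67 SE, adjusted p = 0.00049). The groups did not overlap under either diet. Gstm1, the mu gene with the most counts in these nuclei, had 104, 88.2 and 64.8 CPM in advanced CDAHFD mice against 20.2, 16.7, 37.7 and 24.4 CPM in controls (1.81 ± 0.28 SE, adjusted p = 0.00019). On FPC, 55.2, 166 and 153 CPM in advanced mice against 64.7, 39.1, 74.4 and 62.7 CPM in controls overlapped and passed narrowly (1.18 ± 0.45 SE, adjusted p = 0.049). Gstm2 rose on CDAHFD (1.48 ± 0.44 SE, adjusted p = 0.012) and was not called on FPC (0.87 ± 0.52 SE, adjusted p = 0.19), and Gstm7 fell on CDAHFD (-1.70 ± 0.64 SE, adjusted p = 0.036) and was not called on FPC (-1.37 ± 0.61 SE, adjusted p = 0.084). Gstm4, Gstm5 and Gstm6 were called under neither diet. In some hepatocyte groups a single mouse led the mu genes: mouse Advanced_9845 had the highest advanced CDAHFD value for 7 of 7 Gstm genes, and mouse Mild_6886 the highest mild FPC value for 7 of 7. Elsewhere the mouse that was most often highest led fewer. It led 4 of 7 in CDAHFD controls, mild CDAHFD mice and FPC controls, and 5 of 7 in advanced FPC mice. The FPC call of Gstm1 was lost without either of the libraries Advanced_6880 and Advanced_6904 (adjusted p = 0.18 and 0.15) or any 1 of the 4 controls (0.060 to 0.11) and without a filter on low counts (0.081), and the CDAHFD call of Gstm2 without the library Advanced_9845 (0.075). The CDAHFD call of Gstm7 was lost without scaling (0.11), without the library Advanced_9896 or Advanced_10104 (0.12 and 0.13) and without the library Control_9862 or Control_10110 (0.068 and 0.074), and in the fit of the advanced and control libraries alone (0.066).

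Gstp1 and Gstp2, the pi class, are 98.1% identical in coding sequence. Gstp1 was not called on CDAHFD, with 62.3, 142 and 89.0 CPM in advanced mice against 43.4, 123, 120.0 and 81.3 CPM in controls (0.10 ± 0.36 SE, adjusted p = 0.82), and fell on FPC, with 21.9, 56.9 and 48.8 CPM in advanced mice against 87.7, 118, 169 and 167 CPM in controls (-1.54 ± 0.41 SE, adjusted p = 0.0092). Gstp2 rose on CDAHFD, with 16.1, 23.4 and 15.1 CPM in advanced mice against 2.31, 8.03, 5.68 and 5.27 CPM in controls (1.78 ± 0.37 SE, adjusted p = 0.0014), and was not called on FPC (-0.26 ± 0.48 SE, adjusted p = 0.7).

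The theta class, which acts on small halogenated compounds, was likewise mixed. Gstt2 had 54.9, 106 and 84.2 CPM in advanced CDAHFD mice against 34.7, 27.9, 29.1 and 13.9 CPM in controls (1.65 ± 0.27 SE, adjusted p = 0.00031), and 32.7, 53.1 and 29.7 CPM in advanced FPC mice against 73.6, 90.3, 69.5 and 43.2 CPM in controls, where the ranges overlapped (-0.73 ± 0.25 SE, adjusted p = 0.032). Gstt3 was not called on CDAHFD (-0.43 ± 0.45 SE, adjusted p = 0.43) and fell on FPC, to 2.32, 1.91 and 1.82 CPM in advanced mice, against 19.1, 13.7, 11 and 7.79 CPM in controls (-2.55 ± 0.30 SE, adjusted p = 1.4e-05). Gstt1 was called lower under both diets (-0.94 ± 0.36 SE, adjusted p = 0.041 on CDAHFD, -1.14 ± 0.24 SE, adjusted p = 0.0018 on FPC). The FPC call of Gstt2 was lost without scaling (adjusted p = 0.35), without the library Advanced_6826 or Advanced_6904 (0.11 and 0.13) and without the library Control_6816, Control_6852 or Control_6952 (0.066, 0.093 and 0.054). The CDAHFD call of Gstt1 was lost without scaling (0.30), without the library Advanced_9845 or Advanced_9896 (0.069 and 0.080) and without the library Control_9862 or Control_10110 (0.070 and 0.082). It was also lost without a filter on low counts (0.051) and in the fit of the 7 compared libraries alone (0.082). The FPC call of Gstt2 was lost in the fit of its own 7 libraries as well (0.055).

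The single genes of the zeta and kappa classes fell under both diets. Gstz1, the maleylacetoacetate isomerase of tyrosine breakdown, had 135, 154 and 179 CPM in advanced CDAHFD mice against 388, 404, 359 and 367 CPM in controls (-1.27 ± 0.12 SE, adjusted p = 4.6e-06), and 192, 161 and 161 CPM in advanced FPC mice against 481, 466, 537 and 425 CPM in controls (-1.35 ± 0.13 SE, adjusted p = 2.5e-06). The gene overlaps Pomt2. Gstk1, an enzyme of mitochondria and peroxisomes, changed by -0.94 ± 0.19 SE, adjusted p = 0.00099 on CDAHFD and -1.47 ± 0.21 SE, adjusted p = 7.3e-05 on FPC, with no overlap between advanced and control mice. Gsto1, an omega GST, was called on FPC alone (-0.84 ± 0.29 SE, adjusted p = 0.027), with overlapping ranges, and its CDAHFD change was -0.34 ± 0.35 SE, adjusted p = 0.41. That FPC call was lost without scaling (adjusted p = 0.27) and without the library Advanced_6826 or Advanced_6904 (0.086 and 0.080) or the library Control_6816 or Control_6952 (0.068 in both). Gsto2 and Gstt4 were low, Gsto2 being tested on FPC without a call and Gstt4 on neither diet.

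**Figure D4:**
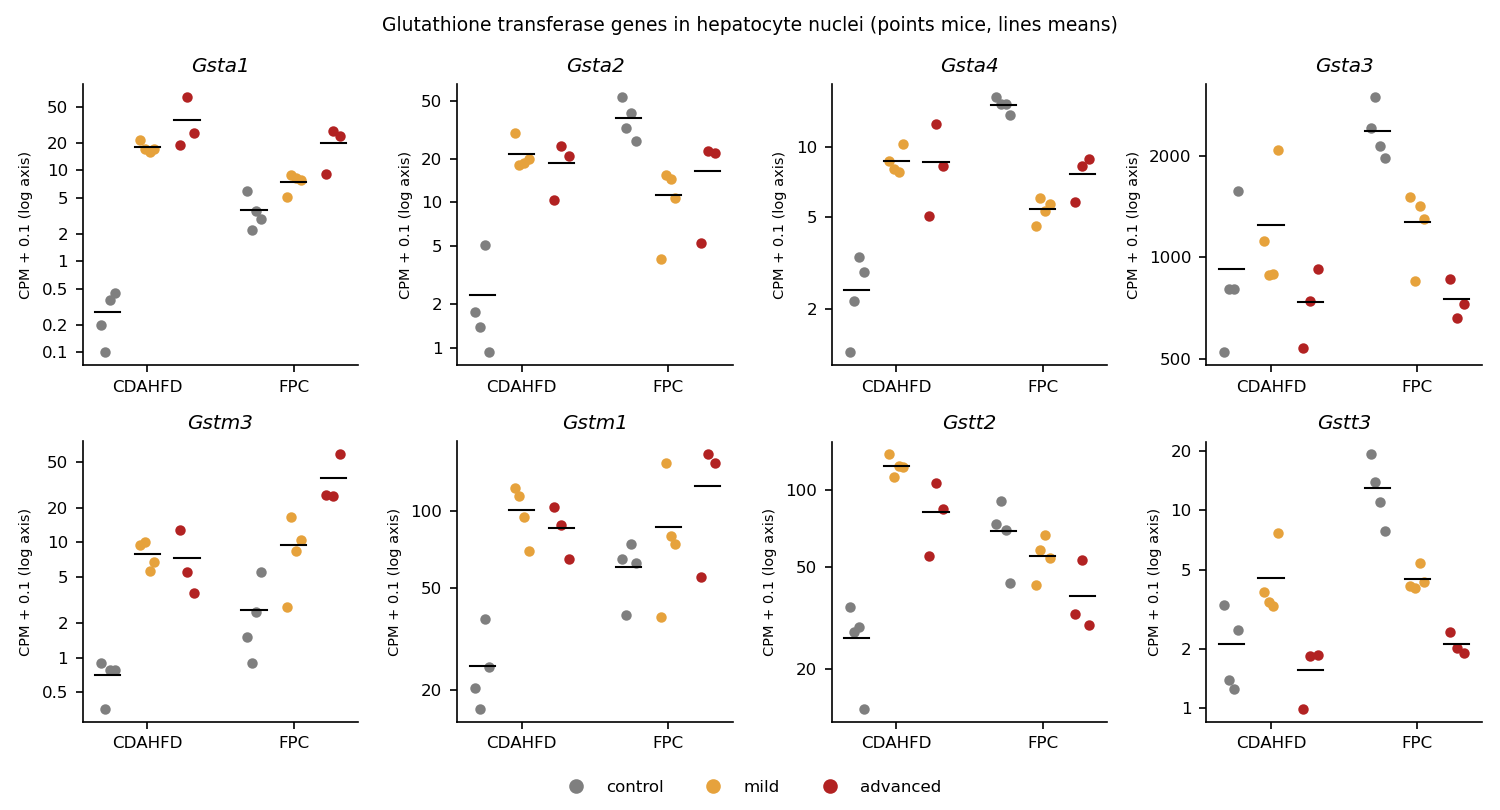
CPM + 0.1 of 8 GST genes in hepatocyte nuclei of single mice (points, log axis) with group means (lines), by diet and stage. Gsta1 lies at 19 to 63.3 CPM in advanced CDAHFD mice and at 0 to 0.342 CPM in their controls, while the FPC controls, at 2.08 to 5.82 CPM, start higher.

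The difference between the diets was tested directly, as the advanced fold change on CDAHFD minus that on FPC. It was called for 8 of 42 members, all positive, with 11.9% of all genes called (4.5% higher, 7.36% lower). They were Gsta1 (5.16 ± 0.79 SE, adjusted p = 0.00072), Gsta2 (4.29 ± 0.80 SE, adjusted p = 0.0031), Gsta4 (2.84 ± 0.39 SE, adjusted p = 0.00032), Gstp2 (2.10, lost in 10 of 14 fits that left out a library), Gstt2 (2.43), Gstt3 (2.18), Sult2a8 (1.64) and Sult5a1 (3.54). The low-fat controls of the 2 experiments also differed. In CDAHFD controls 12 of 42 members were called lower than in FPC controls and 0 higher, while 3.8% of all genes were called (2.56% lower). The alpha and theta genes stood out by size: Gsta1 averaged 0.178 ± 0.156 CPM in CDAHFD controls and 3.55 ± 1.62 CPM in FPC controls (SD, n = 4 each, -4.37 ± 0.63 SE, adjusted p = 0.00031). For Gsta2 the means were 2.19 ± 1.90 and 38.0 ± 11.5 CPM in CDAHFD and FPC controls (-4.17 ± 0.57 SE, adjusted p = 0.00023). Gsta4 (-2.71), Gstt3 (-2.67), Gstt2 (-1.39), Gsta3 (-1.36), Gstt1 (-1.07), Ugt2b5 (-1.03), Ugt2b35 (-0.94), Ugt2b36 (-0.78), Ugt2b34 (-0.73) and Gstk1 (-0.63) were the others. Gsta1, Gsta2, Gsta4, Gstt3, Ugt2b5 and Ugt2b36 kept this call under every alternative, while leaving out single libraries lost Gstt1 in 7 of 8 fits, Gstk1 and Ugt2b34 in 6 of 8 and Ugt2b35 in 4 of 8. Each diet's fold change is measured against its own controls, so both comparisons rest on the same control libraries, and Gsta1, Gsta2, Gsta4, Gstt2 and Gstt3 were called in both. Diet, its duration and the cohort of mice cannot be told apart in this comparison.

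**Figure D5:**
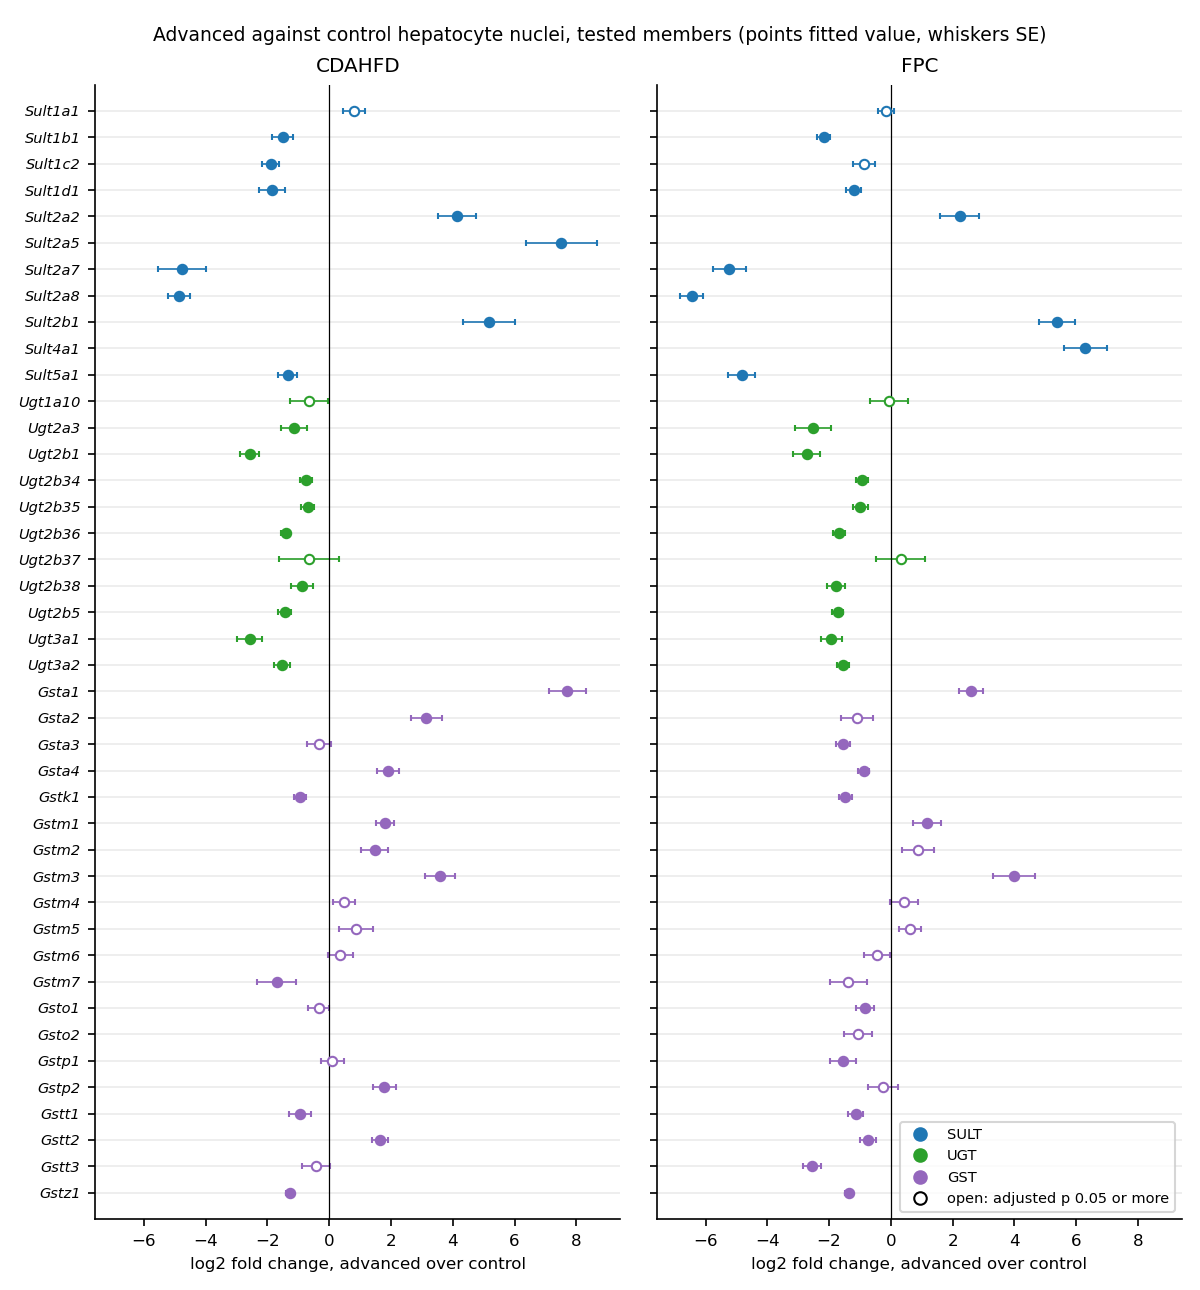
Log2 fold change of advanced over control hepatocyte nuclei ± SE for the members, CDAHFD left and FPC right, filled where the adjusted p was under 0.05. The 9 called UGT genes lie left of 0 in both panels, while Gsta1 reaches 7.70 on CDAHFD and Sult2a8 -6.45 on FPC.

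In mild CDAHFD hepatocyte nuclei 13 of 40 members were called higher and 12 lower than in controls (background 56.3% of genes, with 29.6% higher and 26.7% lower; 15 and 8 without scaling), and in mild FPC hepatocyte nuclei 4 of 41 higher and 22 lower (background 33.1% of genes, with 21.8% higher and 11.3% lower). The CDAHFD counts lay near the background in both directions. Gsta2, Gsta4 and Gstt3 were called higher in mild CDAHFD mice (3.36, 1.91 and 1.14) and lower in mild FPC mice (-1.70, -1.43 and -1.48), each against its own controls; the CDAHFD call of Gstt3 was lost without the library Mild_10102 or the library Control_9867 or Control_10110 (adjusted p = 0.11, 0.072 and 0.067). Between the stages the CDAHFD mice differed little: 4 of 40 members were lower in advanced than in mild mice and 0 higher, with 2.82% of all genes called (1.3% higher, 1.52% lower). Advanced FPC mice had 5 of 41 members higher and 12 lower than mild mice, against a background of 20.2% (12.7% higher, 7.49% lower). Without scaling the split was 1 higher and 4 lower on CDAHFD, and 6 higher and 8 lower on FPC. Single libraries weigh on both: the CDAHFD count was 1 without the mouse Advanced_9896 and 2 without the mouse Mild_9852, and the FPC count was 8, 9 and 10 without the mice Advanced_6880 and Advanced_6904 and the mouse Mild_6887.

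Whole liver nuclei gave a similar picture. In advanced CDAHFD whole liver 7 of 40 members were called higher and 19 lower than in controls (background 55.7% of genes, with 29.7% higher and 25.9% lower), and in advanced FPC whole liver 5 of 42 higher and 26 lower (background 59.3% of genes, with 31.3% higher and 28% lower). All 7 and 19 CDAHFD calls were also made in hepatocyte nuclei, as were 5 of 5 higher and 23 of 26 lower FPC calls. Both fractions came from the same mice, and whole liver nuclei include hepatocyte nuclei, so these calls are not independent. The share of all genes called in both fractions was not computed. Sult2a8 had 89.0, 60.5 and 69.0 CPM in advanced CDAHFD whole liver against 4269, 4178, 4008 and 2544 CPM in controls, and 30.6, 35.0 and 21.8 CPM in advanced FPC whole liver against 4050.4, 3741, 3969.9 and 3769 CPM in controls. For mild against control whole liver 7 of 40 members were higher and 17 lower on CDAHFD (background 52.2% of genes, with 27.7% higher and 24.5% lower; 9 and 9 without scaling) and 3 of 42 higher and 25 lower on FPC (background 43.2% of genes, with 25% higher and 18.2% lower). Advanced against mild whole liver gave 1 higher and 3 lower on CDAHFD (background 1.88% of genes, with 0.83% higher and 1.05% lower) and 5 higher and 15 lower on FPC (background 22.3% of genes, with 13.3% higher and 8.98% lower). The CDAHFD count of 4 was 1 without mouse Mild_9852 or Mild_9853 and 2 without mouse Advanced_9845 or Advanced_9896. The FPC count of 20 was 12 without mouse Advanced_6880 and 13 without mouse Mild_6887.

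Hepatocyte nuclei were set against whole liver nuclei of the same mice. Since a mouse gave both libraries, the fit with mouse as a block is given beside the unblocked one. The background shares are those of the unblocked fit. None was computed with the block, so the blocked counts have no background beside them. In advanced CDAHFD mice 10 of 43 members were higher in hepatocyte nuclei and 1 lower (17 higher and 0 lower with the block; background 43.2% of genes, with 20.1% higher and 23% lower). The unblocked count of 10 higher lay near the background. The 10 were Gstm1, Gstm4, Gstm6, Gstp1, Gstp2, Gstt2, Gstz1, Sult1a1, Sult2a8 and Sult5a1, with log2 differences of 0.53 (Gstz1) to 1.41 (Gstp2), and Gsto2 was lower (-1.49, adjusted p = 0.053 with the block). Gstp2, Gstt2, Gstz1 and Sult1a1 kept their call in each fit that left out a library, and the others lost it in 1 to 3 of 6. In CDAHFD controls 1 of 43, Gstz1, was higher and 0 lower (8 and 0 with the block; background 31% of genes, with 14.6% higher and 16.4% lower). Advanced FPC mice had 4 of 42 higher and 0 lower (19 and 0 with the block; background 22.5% of genes, with 4.83% higher and 17.7% lower): Sult2a8 (0.93), Ugt3a2 (0.61), Ugt2b36 (0.57) and Gstz1 (0.51). Of these Gstz1 kept its call in each of 6 fits that left out a library, while Sult2a8 lost it in 2, and Ugt3a2 and Ugt2b36 in 4. FPC controls had 0 of 42 called by edgeR (15 higher with the block; background 17.5% of genes, with 1.35% higher and 16.2% lower). There, 0 were also under an unadjusted p of 0.05 and 0 were called by DESeq2. Without the hepatocyte library Advanced_9845 or the whole liver library Advanced_10104 the advanced CDAHFD count of 11 was 5, and without the hepatocyte library Advanced_6826 the advanced FPC count of 4 was 2.

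Whether the disease change differed between hepatocyte and whole liver nuclei was tested as an interaction. On CDAHFD it was called for Gstp2 alone of 43 members (1.63 ± 0.51 SE, adjusted p = 0.048; range of the adjusted p over the alternatives 0.00041 to 0.131), which was lost in 11 of 14 fits that left out a library (it was kept without the whole liver library Control_9867 or Advanced_9896 or the hepatocyte library Control_9867), and 10.2% of all genes were called (3.63% higher, 6.62% lower). With the mouse block 6 members were called, all positive: Gstm1, Gstp2, Gstt2, Sult1a1, Sult2a8 and Sult5a1. The shares over all genes were computed for the fit without the block only. On FPC 0 of 42 were called by edgeR (background 3.82% of genes, with 2.83% higher and 0.984% lower) and 2 with the block, Gstm3 and Gstz1. On FPC 0 were also under an unadjusted p of 0.05 without the block and 0 were called by DESeq2.

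Genes that supply, regulate or follow conjugation were read beside the members. Of 42 measured companion genes, 10 of 40 tested were called higher and 15 lower in advanced CDAHFD hepatocyte nuclei, and 9 of 41 higher and 16 lower in advanced FPC hepatocyte nuclei. Over all genes 59.5% (30.3% higher, 29.2% lower) and 46.9% (26.5% higher, 20.4% lower) were called in these comparisons, so the CDAHFD count lay near the background. Among 13 genes of cofactor supply, 4 were higher and 3 lower on CDAHFD, 4 higher and 2 lower on FPC. These cofactor counts lay near the background under both diets. Nqo1, Abcc4 and Mgst1, named below, come from companion lists whose counts are not given here. Ugdh, which makes UDP-glucuronic acid, rose on CDAHFD (1.58 ± 0.17 SE, adjusted p = 1.4e-05) and was not called on FPC (-0.10 ± 0.22 SE, adjusted p = 0.76). Papss2, which makes the sulfate donor PAPS, fell under both diets (-0.92 ± 0.32 SE, adjusted p = 0.029 on CDAHFD, -1.66 ± 0.18 SE, adjusted p = 8.4e-06 on FPC). Of 10 regulators 0 were higher and 5 (CDAHFD) or 6 (FPC) lower. Nr1i3, which encodes CAR, fell under both diets (-0.69 ± 0.23 SE, adjusted p = 0.021 on CDAHFD, -1.72 ± 0.32 SE, adjusted p = 0.00078 on FPC). Nfe2l2, which encodes NRF2, was not called (0.23 ± 0.15 SE, adjusted p = 0.22 on CDAHFD, 0.34 ± 0.17 SE, adjusted p = 0.12 on FPC). Nqo1, a classical NRF2 target, rose by 1.99 ± 0.31 SE, adjusted p = 0.00018 on CDAHFD and 1.33 ± 0.33 SE, adjusted p = 0.005 on FPC. Abcc4, an exporter of conjugates, rose under both diets (4.72 ± 0.29 SE, adjusted p = 2.9e-07 on CDAHFD, 4.98 ± 0.48 SE, adjusted p = 6.4e-06 on FPC), and Mgst1, a membrane-bound glutathione transferase outside the families studied here, fell (-1.50 ± 0.20 SE, adjusted p = 5.2e-05 on CDAHFD, -1.20 ± 0.22 SE, adjusted p = 0.00058 on FPC).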

How the data were processed

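Nuclear RNA was read from 44 libraries of 22 mice. The labels' protocols give Trizol extraction, on-column DNase, 50 to 100 ng of RNA, a stranded kit without poly-A selection, and paired 50-base reads on an Illumina HiSeq. STAR 2.4.2a, DESeq2 1.24.0 and mm10 are named in the submitters' processing notes; the counter and its strand setting are not given in the sources used here. The authors deposited raw whole-number counts per RefSeq identifier. Per the file headers, a second table deposited by the authors holds log2 fold changes and adjusted p-values between hepatocyte groups, with gene positions.

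Symbols came from that table for 48 members and from RefSeq for 4. Counts were scaled by TMM in edgeR 4.0.16 (limma 3.58.1, R 4.3.3), filtered with filterByExpr by group, and tested with the robust quasi-likelihood F-test, Benjamini-Hochberg adjusted over all genes tested (threshold 0.05). Each fraction and diet was fitted on its 11 libraries, fractions on 22 per diet, and diets and controls on the 22 hepatocyte libraries. The SE was taken as the size of the log2 fold change over the root of its F statistic. CPM used TMM factors over all 44 libraries (0.716 to 1.258). Scripts were tested on simulated data. Alternatives were RLE scaling, other filters, smaller fits, DESeq2 1.42.0, the replicate block and leaving out each library. Library totals without scaling, the exchange of a pair of mouse numbers and the comparison of controls were added after seeing the data.

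Per-library values are given for members of mean CPM of at least 1 that were called in advanced disease with an absolute log2 fold change of at least 1 (at most 12 per direction and diet), and for the highest member of each family; others shown were chosen after their values were seen. The members, companion genes and markers were chosen with earlier results of these data known. The mouse number in the labels marks the animal, so it pairs the fractions. Over 9788 genes, deviations from group means correlated above 0.1 and best with the same number in 20 of 22 mice, and not in CDAHFD mouse Control_9862 (-0.22) and Control_9867 (-0.31). Each library is a separate mouse within a group. Intervals and floors cover counting error only. Identity between coding sequences came from blastn 2.17.0, and start windows from RefSeq on GRCm38.p6 (45 members matched). The results for another motif searched and for a companion gene are not reported here.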

Additional observations from a re-analysis of the deposited data

Results flagged for a closer look

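Single mice stood apart from the rest of their group in 23 of 256 groups of 4 mice examined for the 32 members named most closely; chance alone marks about 1 in 20. In each case the value is the mouse at the edge of its group.

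Among the UGT genes, Ugt2a3 was marked most often. It stood at 179 CPM in the CDAHFD control hepatocyte library labelled Control_9862, where Ugt2b38 also stood apart at 23.7 CPM, and at 149 CPM in the CDAHFD control whole liver library labelled Control_9867. Mild FPC mouse Mild_6825 stood apart for Ugt2a3 in both fractions, at 133 CPM in hepatocyte nuclei and 103 CPM in whole liver, and in whole liver also for Ugt2b1 (89.7 CPM) and Sult5a1 (26.7 CPM). Mild CDAHFD mouse Mild_10102 had 34.4 CPM of Ugt2a3 in whole liver. CDAHFD mouse Control_10113 was apart for Ugt1a10 in hepatocyte nuclei (5.86 CPM) and whole liver (4.82 CPM), for Ugt3a2 (195 CPM) and Sult1d1 (74.8 CPM) in hepatocyte nuclei, and for Sult2a8 in whole liver (2540 CPM).

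Among the GST genes, Gstt3 stood apart in CDAHFD mouse Mild_10102 in both fractions, at 7.58 CPM in hepatocyte nuclei and 3.56 CPM in whole liver. Gsta2 stood apart in CDAHFD mouse Mild_9852 (29.9 CPM, hepatocyte nuclei), Gstp1 in FPC mouse Mild_6886 (87.2 CPM, hepatocyte nuclei) and Gsto1 in FPC mouse Control_6953 (9.61 CPM, whole liver). The remaining cases were near the limit of counting: Sult3a2 at 0.309 CPM in hepatocyte nuclei of FPC mouse Control_6952, 0.0421 CPM in whole liver of CDAHFD mouse Mild_9894 and 0.237 CPM in whole liver of FPC mouse Control_6816, and Sult4a1 at 0.129 CPM in hepatocyte nuclei of CDAHFD mouse Control_9867 and 0.0599 CPM in those of FPC mouse Control_6953.

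The change of advanced over control hepatocyte nuclei differed between the diets, by the test of the difference itself, for 8 of 42 members, with 11.9% of all genes called. As CDAHFD minus FPC on the log2 scale it was 5.16 for Gsta1, 4.29 for Gsta2, 3.54 for Sult5a1, 2.84 for Gsta4, 2.43 for Gstt2, 2.18 for Gstt3, 2.10 for Gstp2 and 1.64 for Sult2a8. Of these, Gsta1, Gsta2, Gsta4, Gstt2 and Gstt3 were also called lower in CDAHFD controls than in FPC controls. The calls of Gstp2 and Sult2a8 depended on single libraries, as given above. Between fractions the change of advanced over control differed for Gstp2 on CDAHFD, by 1.63 more in hepatocyte than in whole liver nuclei (interaction test, adjusted p = 0.048). This call was lost in 11 of 14 fits that left out a library, and 10.2% of all genes were called.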

How the results depend on the processing

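Directions held for the members: of 11880 values of single genes under alternatives, 0 changed sign where called, 11316 were counted as unchanged, 342 lost a call and 222 gained 1. The unchanged values stayed on their side of the threshold or had no adjusted p under the alternative. Members removed by the filter of an alternative are not among these values, so lost calls may be undercounted. Counts of members called moved by more than 1.5 times in 9 of 20 comparisons, and in 11 when leaving out single libraries is included, and the cause was not tested. With DESeq2, advanced against mild CDAHFD gave 9 in hepatocyte nuclei (main 4) and 9 in whole liver (main 4), and hepatocyte against whole liver nuclei gave 7 in advanced FPC mice (main 4) and 0 in CDAHFD controls (main 1); RLE scaling and library totals without scaling also gave 0 there. With the mouse as replicate block, hepatocyte against whole liver nuclei gave 15 in FPC controls (main 0), 19 in advanced FPC mice, 8 in CDAHFD controls and 17 in advanced CDAHFD mice (main 11), and the interaction gave 2 on FPC and 6 on CDAHFD. With the partners of CDAHFD mouse Control_9862 and Control_9867 exchanged, the block gave 15 in CDAHFD controls, 23 in advanced CDAHFD mice and 11 for the interaction. No filter on low counts left 0 for the CDAHFD interaction, and a fit of the control libraries alone gave 7 for CDAHFD against FPC controls (main 12).

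Leaving out 1 library at a time gave 26 to 32 calls in advanced CDAHFD and 26 to 29 in advanced FPC hepatocyte nuclei, 24 to 26 and 20 to 27 in mild ones, and 1 to 4 and 8 to 17 for advanced against mild. In whole liver the ranges were 25 to 28 and 28 to 33, 21 to 24 and 26 to 30, and 1 to 4 and 12 to 19. Between fractions they were 5 to 13 in advanced CDAHFD mice, 1 to 2 in CDAHFD controls, 2 to 6 in advanced FPC mice and 0 to 0 in FPC controls, and for the interaction 0 to 1 on CDAHFD and 0 to 0 on FPC. The diet difference ranged over 6 to 9 and the controls over 8 to 11. Depth limits 16 members, whose mean lay under 1 CPM.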

Other observations

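Sult2a8 made up 95.3% ± 1.04, 86.2% ± 4.79 and 51.7% ± 12.2 of the summed SULT CPM in hepatocyte nuclei of control, mild and advanced CDAHFD mice, and 95.3% ± 0.823, 95.2% ± 0.631 and 42.5% ± 9.95 in those of control, mild and advanced FPC mice (SD, n = 4, 4 and 3).

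Among motif letters searched in the RefSeq start windows, on both strands, were TATAAA in 13 of 56 member windows (23.2%, all windows 13.6%), TTCNNNGAA of STAT5 in 3 (5.36%, all windows 8.30%) and CAAAGTCCA of HNF4 in 1, that of Sult1b1 (1.79%, all windows 0.475%).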
